A study of Mus musculus with 56 samples.

Results

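Clec4d, Clec4e, Clec4n, Clec7a, Clec4a1, Clec4a2, Clec4a3, and Clec12a are 8 C-type lectin receptor genes that lie in the Dectin clusters of mouse chromosome 6. Their chromatin was examined in bone marrow-derived macrophages (BMDMs) by taking every ChIP-seq peak whose annotated gene name was one of the 8. Of 20352 genes named in the files, these 8 held 1301 of 1610519 peaks. At 1 hr after IL-4, the active histone mark H3K27Ac fell at Clec4d, Clec12a, Clec4e, and Clec4n and rose at Clec7a and Clec4a3. At an unadjusted p of at most 0.05, 46.0% of all genes passed in H3K27Ac. Phosphorylated RNA polymerase II (RNAPII-pS5) was lower at Clec4d, Clec12a, and Clec4e in the same experiment at an unadjusted p of at most 0.05, as 14.6% of all genes were lower or higher, but none of these 3 passed adjustment. It rose at Clec4e after LPS, where 38.8% of all genes passed the same threshold. The H3K27Ac changes and the rise at Clec4e after LPS passed adjustment over all genes. So did 4281 of 13035 genes in H3K27Ac and 3175 of 12477 in RNAPII-pS5 after LPS.

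C-type lectin receptors of this family sit on myeloid cells and bind sugars and glycolipids of fungi, mycobacteria, and damaged cells. Clec7a (Dectin-1) carries its own activating tail, whereas Clec4n (Dectin-2), Clec4e (Mincle), and Clec4d (MCL) signal through the Fc receptor gamma chain, encoded by Fcer1g. Both routes engage the kinase Syk and the adaptor Card9, which leads to NF-kB, whose p65 subunit was among the proteins measured. Clec12a (MICL) and Clec4a2 (DCIR) carry inhibitory tails that recruit phosphatases, and Clec4a1 and Clec4a3 are close relatives of Clec4a2. IL-4 polarizes macrophages toward the alternative state through STAT6, while LPS, a bacterial wall component, activates NF-kB.

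The data were 56 lists of peaks for 9 antibodies, in 28 groups of 2 samples. BMDMs from C57BL/6 mice of 8 to 12 weeks were grown in L929 supernatant, a source of M-CSF, so every group including the controls carried that factor. In the 1 hr experiment (32 samples), untreated cells were compared with cells given IL-4 (20 ng/ml) for 1 hr, with antibodies to H3K27Ac, RNAPII-pS2, RNAPII-pS5, p300, PU.1, and the deacetylases HDAC1, HDAC2, and HDAC3. In the pretreatment experiment (24 samples), RNAPII-pS5, RNAPII-pS2, and p65 were measured in ctrl/ctrl (no treatment), IL-4 PT/ctrl (IL-4 at 20 ng/ml for 24 hr), ctrl/LPS (LPS at 100 ng/ml for 1 hr), and IL-4 PT/LPS (the IL-4 pretreatment followed by LPS). RNAPII-pS5 marks initiating and RNAPII-pS2 elongating polymerase, PU.1 is the lineage factor of macrophages, p300 is a histone acetyltransferase, and HDAC proteins remove histone acetylation.

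Each peak carries a score, which for MACS2 peaks is taken from its values to be a −log10 p- or q-value, and for H3K27Ac is a signal of normalized tags. The gene score used below is the sum of the scores of all peaks annotated to the gene. Without reads the depth is unknown, so the number of peaks is given, a number that also differed between antibodies and treatments. It ran from 8440 to 71027 per sample, of which 9 to 53 peaks (0.0433% to 0.1545%) belonged to the 8 lectin genes. The p300 untreated replicate 1 stood apart, with 44787 peaks and a median score of 11.04 against 66710 to 69360 peaks and 18.18 to 19.23 in the other 3 samples. In RNAPII-pS5, ctrl/LPS had 14476 and 15349 peaks and ctrl/ctrl 20803 and 19279. In the 1 hr experiment, the peak names inside the 4 RNAPII-pS2 lists carry the opposite treatment to the labels; the labels were followed, and those libraries are named only as labelled. The labels give HDAC3 the catalogue number of the H3K27Ac antibody, as does the study's methods text, while its resource table lists another number. The HDAC3 values are therefore those of libraries labelled HDAC3.

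The labelled cell type was checked by peaks at marker genes in the samples without treatment. Of 8 macrophage markers, 6 had an RNAPII-pS5 peak of any kind and 1 or 2 a promoter-annotated peak, with summed scores of 408.8 to 680.3 over all peaks. In H3K27Ac, 4 of the 8 had a region and 1 a promoter-annotated region, with summed scores of 2200.0 to 2280.1 over all regions. No promoter-annotated peak was found for 5 T cell, 5 B cell, 5 dendritic cell, and 4 fibroblast or stromal cell markers in either antibody, and 0 or 1 of 6 neutrophil markers had one. Peaks of any kind were present at 1 to 4 of the markers of each of these other cell types. In H3K27Ac, 3 or 4 of the 5 dendritic cell markers had a region. The summed scores of these other cell types were 7.9 to 164.2 in RNAPII-pS5 and 41.1 to 867.2 in H3K27Ac. Their part in the results was not tested. A change in the share of cells and a change per cell cannot be told apart in such samples.

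All 8 genes lie on chromosome 6 of GRCm38 (mm10), with positions from RefSeq for GRCm38.p6. Clec4a1 (chr6:122921848-122934619), Clec4a3 (chr6:122952515-122969878), Clec4a2 (chr6:123122690-123143999), Clec4n (chr6:123229843-123247024), and Clec4d (chr6:123262107-123275268) lie on the plus strand, and Clec4e (chr6:123281789-123289871) follows Clec4d on the minus strand. Clec12a (chr6:129349783-129365303, plus strand) and Clec7a (chr6:129461591-129472785, minus strand) lie in a separate cluster. The 1301 peaks comprised 484 intergenic, 425 intronic, 260 promoter, 69 transcription end, 41 exonic, and 22 5′ UTR annotations. Clec4a2 held 211 peaks, Clec4a1 194, Clec4a3 193, Clec4d 181, Clec12a 160, Clec4n 145, Clec7a 111, and Clec4e 106. At Clec4d only 10 peaks were promoter peaks and 91 were intergenic, whereas at Clec4e 40 of 106 were promoter peaks. A peak was present in all 56 samples at 6 of the genes, in 54 at Clec7a, and in 52 at Clec4e.

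Overlapping PU.1, p300, and p65 peaks were merged into 74 elements, of which 13 lay within 1000 bp of a transcription start site (TSS). Clec4d, Clec4a1, and Clec4a2 held 13 elements each, Clec12a 9, Clec4n and Clec4a3 8 each, Clec7a 6, and Clec4e 4. An antibody was counted at an element if at least 1 sample of either experiment had an overlapping peak. By this count all 9 antibodies were found at 14 elements, at least 1 of them at each of the 8 genes. At 24 elements only 1 antibody was found, and in 21 of these it was PU.1. PU.1 was present in all 4 samples at 31 elements, and p300 in all 4 at 23. The element with all 9 antibodies nearest to Clec4d lay 9029 bp upstream of its TSS and that of Clec4n 2140 bp upstream, whereas the other 6 genes had one within 1000 bp of the TSS.

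**Figure D1:**
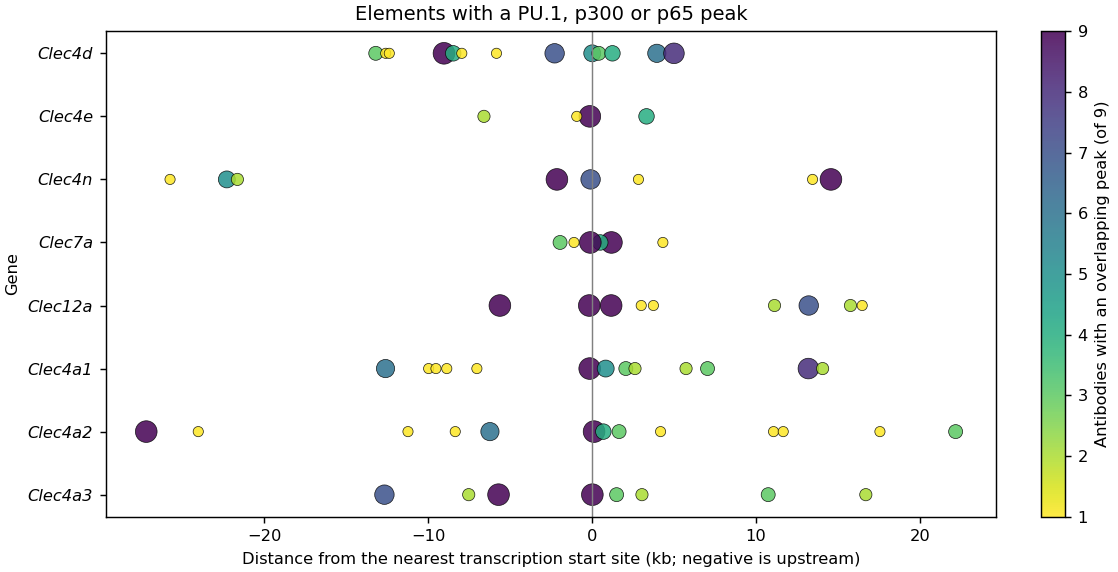
Elements with a PU.1, p300, or p65 peak at the 8 lectin genes. The x axis gives the distance from the nearest TSS in kb and each point is 1 of 74 elements. Colour and size give how many of the 9 antibodies had an overlapping peak in at least 1 sample. At Clec4d the element with all 9 lies about 9 kb upstream, and at most genes one lies at the TSS.

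Sequences of 300 bases are given for the 4 elements that the results below turn on: the upstream element of Clec4d and the promoters of Clec7a and Clec12a, where H3K27Ac changed, and the site upstream of Clec4e where p65 was found in LPS samples only. Both strands were searched for the PU.1 core GGAAGT, the AP-1 motif TGANTCA, and the C/EBP motif TTGCNNCAA. STAT half-sites with 3 (TTCNNNGAA) or 4 (TTCNNNNGAA) bases between and a 10-base NF-kB consensus (GGG first, CC last) were also searched for. Other forms of the NF-kB motif were not searched for, so a window without this match may still hold one. Each window holds 1 match. Capitals mark the match, and all sequences run 5′ to 3′ on the strand given. The window at Clec4d (chr6:123252929-123253228, plus strand, intergenic) holds the PU.1 core on the opposite strand at bases 116 to 121, that of Clec7a (chr6:129472730-129473029, minus strand, promoter) a STAT match with 4 bases between at bases 120 to 129, and that of Clec12a (chr6:129349994-129350293, plus strand, promoter) an AP-1 match at bases 38 to 44. The window at Clec4e (chr6:123290652-123290951, plus strand, upstream of the TSS) holds a C/EBP match at bases 116 to 124. The Clec12a window lies inside the gene by the RefSeq position given above. Its promoter entry and the peak annotation place the TSS further downstream than the start of that position.
Clec4d upstream element: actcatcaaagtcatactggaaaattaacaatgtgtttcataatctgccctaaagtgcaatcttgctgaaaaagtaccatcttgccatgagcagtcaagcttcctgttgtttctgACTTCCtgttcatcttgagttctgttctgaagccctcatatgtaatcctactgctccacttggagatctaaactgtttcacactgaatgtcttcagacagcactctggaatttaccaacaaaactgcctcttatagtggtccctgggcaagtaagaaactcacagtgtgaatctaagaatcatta
Clec7a promoter: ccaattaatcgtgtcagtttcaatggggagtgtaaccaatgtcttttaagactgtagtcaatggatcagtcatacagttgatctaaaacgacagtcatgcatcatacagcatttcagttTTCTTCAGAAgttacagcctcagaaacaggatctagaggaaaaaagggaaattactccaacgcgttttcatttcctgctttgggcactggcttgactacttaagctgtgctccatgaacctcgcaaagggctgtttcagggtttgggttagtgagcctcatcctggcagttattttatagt
Clec12a promoter: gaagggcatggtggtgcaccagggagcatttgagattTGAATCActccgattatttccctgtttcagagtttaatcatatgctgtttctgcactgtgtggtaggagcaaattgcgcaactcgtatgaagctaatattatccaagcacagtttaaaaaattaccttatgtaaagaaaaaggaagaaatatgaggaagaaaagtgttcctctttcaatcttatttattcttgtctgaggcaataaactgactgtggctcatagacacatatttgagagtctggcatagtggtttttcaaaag
Clec4e upstream p65 site: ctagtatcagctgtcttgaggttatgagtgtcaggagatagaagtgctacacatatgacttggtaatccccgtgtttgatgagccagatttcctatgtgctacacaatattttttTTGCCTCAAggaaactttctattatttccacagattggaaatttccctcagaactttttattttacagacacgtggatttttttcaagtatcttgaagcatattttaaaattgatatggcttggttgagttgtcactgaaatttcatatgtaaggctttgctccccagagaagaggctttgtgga

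GC content was 40.0% at the Clec4d element, 42.0% at the Clec7a promoter, 37.7% at the Clec12a promoter, and 37.0% at the Clec4e site. The PU.1 core was present in 23.8% of 32851 RefSeq promoters, in 61.4% of 300-base windows on PU.1 peaks (untreated replicate 1, 70936 windows), and in 5 of the 14 lectin elements with all 9 antibodies. The STAT motif with 4 bases between was present in 6.95% of promoters and 2 of the 14 elements, at the promoters of Clec7a and Clec4a1. AP-1 was present in 7.81% of promoters, 30.3% of windows on p65 peaks (ctrl/LPS replicate 1, 26298 windows), and 3 of the 14 elements. C/EBP matches were present in 2.08% of promoters, 3.29% of the p65 windows, and 0 of the 14 elements. NF-kB matches were present in 8.46% of promoters, 16.8% of the p65 windows, and 1 of the 14 elements, 1169 bp downstream of the Clec12a TSS. Of the 8 genes, 7 had an entry among the RefSeq promoters (not Clec4n), of which 2 held the PU.1 core (Clec4a2 and Clec4d). A match is a description of the letters and not a measured site.

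To determine the immediate effect of IL-4, gene scores were centred per sample on the log2 scale and compared with limma at an unadjusted p of at most 0.05. Differences below are log2 changes of the centred gene score, IL-4 relative to untreated. Over 8 antibodies and 8 genes, 14 of 64 comparisons passed. Of these, 12 were outside RNAPII-pS2, 3 with a higher and 9 with a lower score after IL-4. The other 2, in RNAPII-pS2, were higher by the labels and lower by the peak names. After Benjamini-Hochberg (BH) adjustment over all genes 6 passed, all in H3K27Ac. Of all genes tested, 4281 of 13035 passed adjustment in H3K27Ac and 187 of 13481 in RNAPII-pS5. In the other antibodies 0 genes passed adjustment. Centring took out a shift in the median of all genes of 0.85 in p300, −0.46 in HDAC1, 0.42 in HDAC3, and 0.29 in PU.1. The share of higher scores among all genes that passed was 55.0% with and 96.1% without centring in p300, 31.9% and 10.5% in HDAC1, 72.3% and 86.5% in HDAC3, and 53.2% and 69.7% in PU.1.

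**Figure D2:**
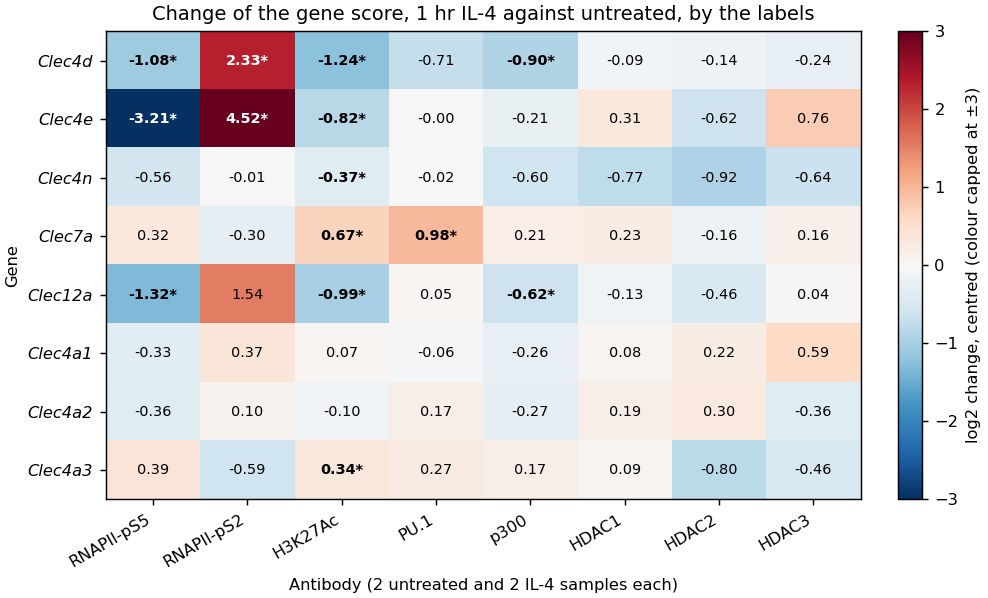
Log2 changes of the centred gene score at 1 hr, IL-4 relative to untreated by the labels, for 8 genes (rows) and 8 antibodies (columns, 2 samples per group). An asterisk marks an unadjusted limma p of at most 0.05; H3K27Ac has 6 such values and the HDAC columns have none, and the RNAPII-pS2 column follows labels that the peak names contradict.

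H3K27Ac changed at 6 of the 8 genes (4 lower, 2 higher), where 46.0% of the 13035 genes tested passed. Clec4d, the gene of the activating receptor MCL, had gene scores of 340.7 and 325.5 in untreated samples and 145.7 and 135.7 after IL-4, a change of −1.24 ± 0.06 (SE; 2.36-fold lower, BH-adjusted p = 0.00346). All of this signal came from the upstream element. The inhibitory receptor gene Clec12a followed, with 474.9 and 491.8 in untreated samples and 228.5 and 256.2 after IL-4 (−0.99 ± 0.09, BH-adjusted p = 0.0079). Its promoter region alone scored 401.8 and 424.6 without and 228.5 and 229.1 with IL-4. Clec4e scored 77.4 and 80.9 and fell to 45.4 and 43.7 (−0.82 ± 0.06, BH-adjusted p = 0.0061).

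Clec4n, the Dectin-2 gene, fell less, from 269.8 and 275.9 to 212.9 and 206.9 (−0.37 ± 0.05, BH-adjusted p = 0.0185). In contrast, Clec7a rose from 221.0 and 229.0 to 343.7 and 368.0 (0.67 ± 0.07, 1.59-fold, BH-adjusted p = 0.0103). Clec4a3 rose from 1247.6 and 1214.6 to 1594.0 and 1518.0 (0.34 ± 0.06, BH-adjusted p = 0.0228). Its element 5701 bp upstream of the TSS scored 333.4 and 310.2 in untreated samples and 539.1 and 536.3 after IL-4. With intergenic regions left out the Clec4a3 change was 0.16, and with the highest region in place of the sum 0.20, neither of which passed. Clec4a1 (717.7 and 695.4 against 749.3 and 724.8) and Clec4a2 (1021.8 and 1016.8 against 948.7 and 951.2) did not pass. In each of the 8 genes the untreated and IL-4 samples did not overlap, also at Clec4a1 and Clec4a2, which did not pass. A lack of overlap therefore did not set apart the genes that passed. The share of all genes without overlap was not determined.

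**Figure D3:**
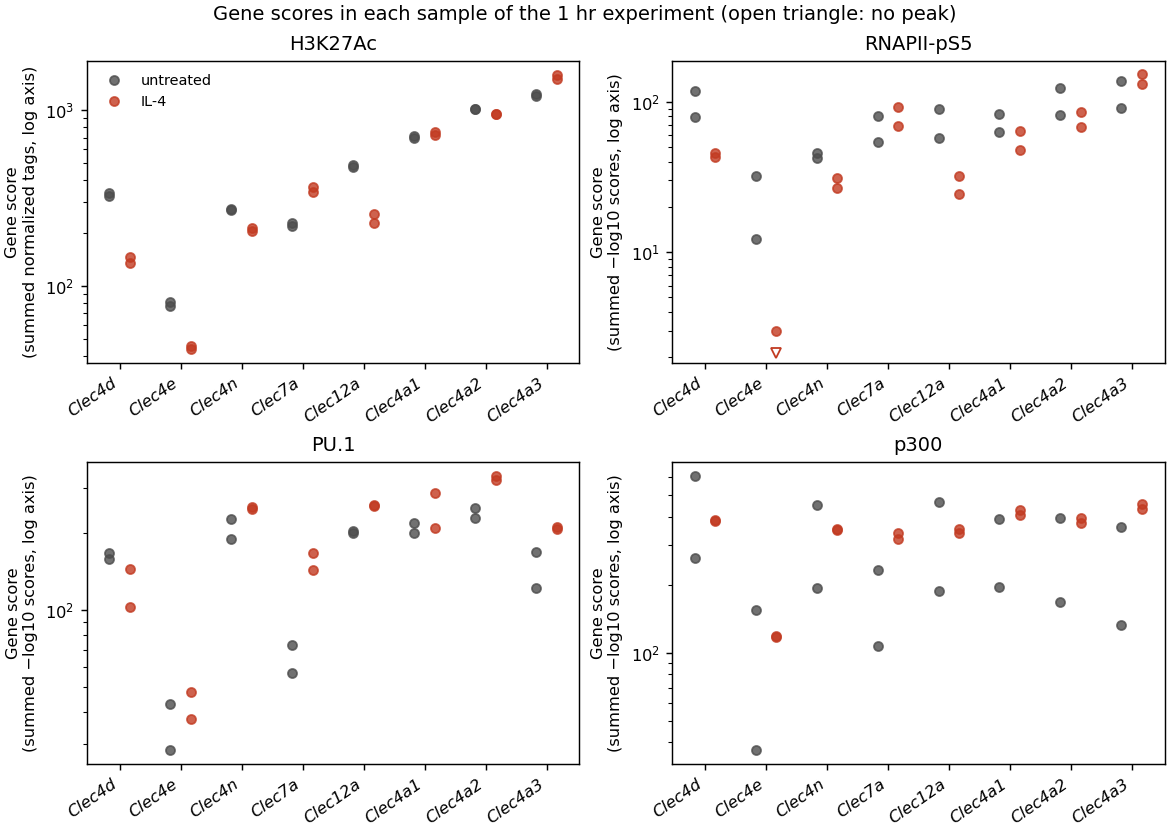
Gene scores in each sample of the 1 hr experiment for H3K27Ac, RNAPII-pS5, PU.1, and p300 on log axes, with 2 untreated and 2 IL-4 samples per gene; an open triangle marks a sample without a peak. Clec4d, Clec4e, and Clec12a lie lower after IL-4 in H3K27Ac and RNAPII-pS5, Clec7a lies higher in H3K27Ac and PU.1, and the 2 untreated p300 samples lie far apart at every gene.

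RNAPII-pS5 passed at 3 of 8 genes, all lower, and 14.6% of the 13481 genes tested passed. Clec12a scored 89.29 and 57.31 in untreated samples and 32.07 and 24.2 after IL-4 (−1.32 ± 0.18, BH-adjusted p = 0.102). Clec4d scored 117.64 and 79.01 and fell to 45.83 and 42.77 (−1.08 ± 0.14, BH-adjusted p = 0.0877). Over its element 1247 bp downstream of the TSS, the overlapping peak scored 51.57 and 47.48 in untreated samples and 24.47 and 22.71 after IL-4. Of these peaks, only those of the untreated samples extended to the element 15 bp from the TSS. Clec4e scored 31.95 and 12.22 in untreated samples, 2.98 in IL-4 replicate 1, and had no peak in IL-4 replicate 2 (−3.21 with that sample at the floor, BH-adjusted p = 0.115). On the centred scale the groups of these 3 genes did not overlap, nor did those of the other 5, so overlap did not set the 3 apart. Before centring, Clec7a did overlap, with 80.36 and 53.69 in untreated samples and 91.82 and 69.14 after IL-4. The share of all genes without overlap was not determined. None of the 3 passed the adjustment. The other 5 genes, Clec4n, Clec4a2, Clec4a1, Clec7a, and Clec4a3, ranged from −0.56 (Clec4n) to 0.39 (Clec4a3).

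PU.1 passed at 1 of 8 genes, Clec7a, against 10.2% of the 15653 genes tested. The Clec7a score was 73.12 and 56.68 in untreated samples and 167.02 and 143.05 after IL-4 (0.98 ± 0.25, BH-adjusted p = 0.373). At its promoter element, which holds the STAT match printed above, PU.1 scored 39.48 and 28.11 without and 93.27 and 76.43 with IL-4. The element 1186 bp downstream scored 31.73 and 28.57 without and 56.57 and 56.24 with IL-4. With 1 sample left out, the Clec7a change was 0.89 without untreated replicate 1, 0.90 without IL-4 replicate 1, and 1.06 without IL-4 replicate 2, all of which missed the threshold. The other 7 genes, Clec4d, Clec4a1, Clec4n, Clec4e, Clec12a, Clec4a2, and Clec4a3, ranged from −0.71 (Clec4d) to 0.27 (Clec4a3).

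p300 passed at 2 of 8 genes, both lower, where 25.8% of the 15708 genes tested passed. Clec4d scored 261.49 and 606.52 in untreated samples and 384.63 and 388.29 after IL-4 (−0.90 ± 0.24, BH-adjusted p = 0.143), so the uncentred groups overlapped. Clec12a scored 186.52 and 462.49 in untreated samples and 352.29 and 337.16 after IL-4 (−0.62 ± 0.21, BH-adjusted p = 0.192). The other 6 genes (Clec4n, Clec4a2, Clec4a1, Clec4e, Clec4a3, and Clec7a) ranged from −0.60 to 0.21. Both calls rest on the centring, since without it the Clec4d change was −0.04 and that of Clec12a was 0.23, and neither passed. Without the untreated replicate 1 that stands apart, Clec4d was at −0.66 and still passed, and Clec12a was at −0.43 and did not. Without either IL-4 replicate both genes missed the threshold, as they did without intergenic peaks (−0.77 and −0.58) and with the highest peak (−0.58 and −0.52). At the Clec7a promoter element p300 scored 31.84 and 72.11 without and 185.84 and 173.63 with IL-4, but the sum over the gene did not pass (0.21 ± 0.27). Single elements are given as values with no test; an exact permutation test of 1 element, with 2 samples against 2, cannot give a p below 0.333.

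None of the 8 genes (Clec4d, Clec4e, Clec4n, Clec7a, Clec4a1, Clec4a2, Clec4a3, and Clec12a) passed in HDAC1 (8.86% of 12319 genes passed), HDAC2 (9.47% of 10464), or libraries labelled HDAC3 (15.4% of 6015). The changes ran from −0.77 to 0.31 in HDAC1, from −0.92 to 0.30 in HDAC2, and from −0.64 to 0.76 in HDAC3. For all genes tested, 0 passed after adjustment in each of the 3. The lowest value in all 3 was that of Clec4n. In HDAC1, Clec4n scored 46.25 and 30.19 in untreated samples and 14.82 and 17.21 after IL-4 (−0.77 ± 0.37), which did not pass, and without centring 1 of the 8 genes passed as lower in HDAC1.

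RNAPII-pS2 passed at 2 of 8 genes, where 16.1% of the 10617 genes tested passed. In the libraries labelled untreated Clec4e had no peak, and in those labelled IL-4 it scored 26.53 and 34.25 (BH-adjusted p = 0.0574). Clec4d scored 4.56 and 16.31 in libraries labelled untreated and 40.46 and 41.66 in those labelled IL-4 (2.33 ± 0.56, BH-adjusted p = 0.146). The other 6 genes (Clec4a3, Clec7a, Clec4n, Clec4a2, Clec4a1, and Clec12a) ranged from −0.59 to 1.54 by the labels. By the labels the 2 calls are the reverse of the RNAPII-pS5 and H3K27Ac changes at the same genes, and by the peak names they are in the same direction. No direction of IL-4 is read from these libraries.

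The pretreatment experiment asked how the response to LPS compares in cells that had or had not been exposed to IL-4 for 24 hr. Its comparisons share control samples, so they are not independent. Centring took out shifts over 0.1 in several of them, and the share of higher scores among all genes that passed moved by more than 10 percentage points in some. With and without centring it was 33.0% and 22.1% for RNAPII-pS5 and 42.4% and 53.0% for RNAPII-pS2 in ctrl/LPS relative to ctrl/ctrl, where the shifts were −0.33 and 0.22. In IL-4 PT/LPS relative to ctrl/LPS it was 61.7% and 75.4% for RNAPII-pS5 (shift 0.29) and 73.6% and 91.8% for p65 (shift 0.50). In IL-4 PT/LPS relative to IL-4 PT/ctrl it was 47.5% and 65% for RNAPII-pS2 (shift 0.34). In ctrl/LPS relative to ctrl/ctrl, 5 of 24 comparisons passed (3 higher, 2 lower), and 2 after adjustment. RNAPII-pS5 passed at 2 of 8 genes against 38.8% of 12477, RNAPII-pS2 at 2 of 8 against 39.9% of 13663, and p65 at 1 of 8 against 45.8% of 12312 genes tested. After adjustment 3175, 3647, and 4324 of all genes passed in these antibodies, in the same order.

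Clec4e, the Mincle gene, had RNAPII-pS5 scores of 13.35 and 7.66 in ctrl/ctrl and 39.99 and 28.43 in ctrl/LPS (2.06 ± 0.39, 4.18-fold, BH-adjusted p = 0.0126). Its RNAPII-pS2 scores were 24.81 and 12.09 in ctrl/ctrl and 39.86 and 40.66 in ctrl/LPS (0.99 ± 0.39, BH-adjusted p = 0.116). This RNAPII-pS2 change was 0.52 without ctrl/ctrl replicate 2, and it also missed the threshold without either ctrl/LPS or either IL-4 PT/LPS sample (0.96 to 1.07), without intergenic peaks (0.64), with the highest peak (0.14), and with the upper 50% of peaks (2.46). Conversely, Clec4a3 had RNAPII-pS5 scores of 45.22 and 46.92 in ctrl/ctrl and 19.4 and 14.77 in ctrl/LPS (−1.12 ± 0.32, BH-adjusted p = 0.0501), which was −0.85 and missed the threshold without ctrl/LPS replicate 2. Its RNAPII-pS2 scores were 59.2 and 45.25 in ctrl/ctrl and 33.88 and 40.09 in ctrl/LPS (−0.71 ± 0.25, BH-adjusted p = 0.0827). The latter missed the threshold without ctrl/ctrl replicate 1 (−0.58) or ctrl/LPS replicate 1 (−0.53), without centring (−0.49), and with the highest peak (−0.42). The other 6 genes, Clec4d, Clec4n, Clec7a, Clec4a1, Clec4a2, and Clec12a, ranged from −0.78 to 0.29 in RNAPII-pS5 and from −0.26 to 0.57 in RNAPII-pS2. Without centring, Clec4a1 (−0.86) and Clec4a2 (−1.10) passed as lower in RNAPII-pS5, where 5160 of all genes passed. Clec4n (0.795) then passed as higher in RNAPII-pS2, where 5384 of all genes passed.

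**Figure D4:**
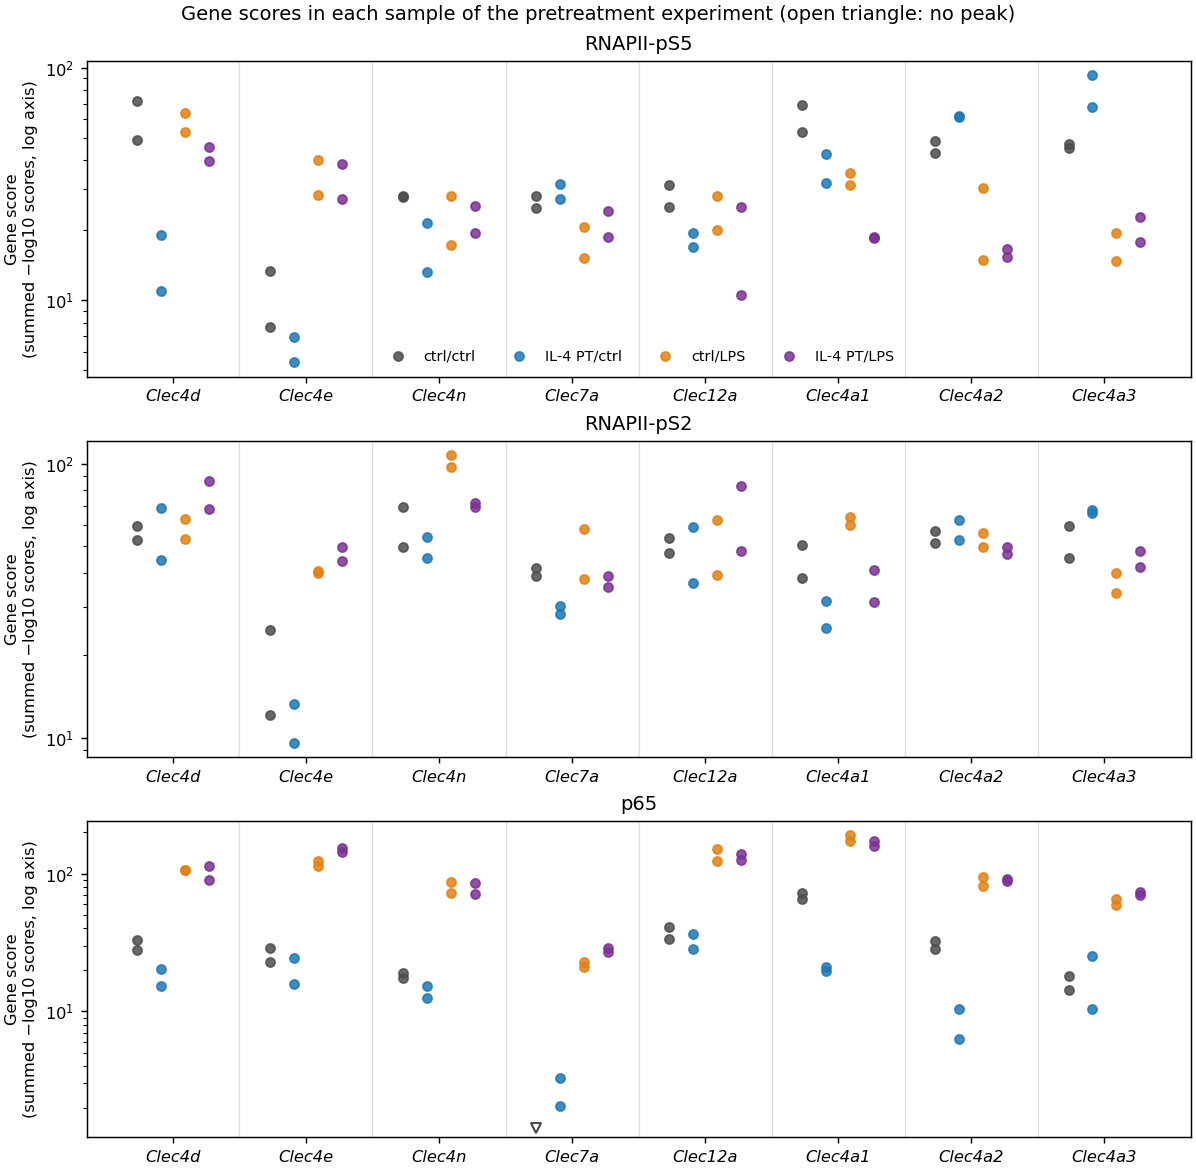
Gene scores in each sample of the pretreatment experiment for RNAPII-pS5, RNAPII-pS2, and p65 on log axes, with 2 samples for each of the 4 treatments; an open triangle marks no peak. Clec4e lies higher in the LPS samples for all 3 antibodies, Clec4d is lowest in IL-4 PT/ctrl for RNAPII-pS5, and the LPS samples lie above the others at every gene for p65 before centring.

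For p65, the answer depends on the scale. The p65 lists grew from 9706 and 9556 peaks in ctrl/ctrl to 26305 and 26820 in ctrl/LPS, and from 11026 and 10253 in IL-4 PT/ctrl to 36738 and 38955 in IL-4 PT/LPS. Without centring, the median log2 change over all genes in ctrl/LPS was 1.60 and all 8 lectin genes passed as higher (median 1.91), while 6884 genes passed in all and 97.6% of them were higher. After centring, which took out a shift of 1.64, only Clec7a passed, and 53.9% of all genes passing were higher. Clec7a had no p65 peak in ctrl/ctrl and scored 21.04 and 22.91 in ctrl/LPS (BH-adjusted p = 0.00399). Clec4e p65 scores were 28.77 and 22.78 in ctrl/ctrl and 122.94 and 113.24 in ctrl/LPS, and those of Clec4a1 were 72.54 and 65.67 against 172.03 and 191.03. On the centred scale these were 0.56 ± 0.29 and −0.25 ± 0.23, and neither passed. The other 5 genes, Clec4d, Clec4n, Clec4a2, Clec4a3, and Clec12a, lay between these values.

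**Figure D5:**
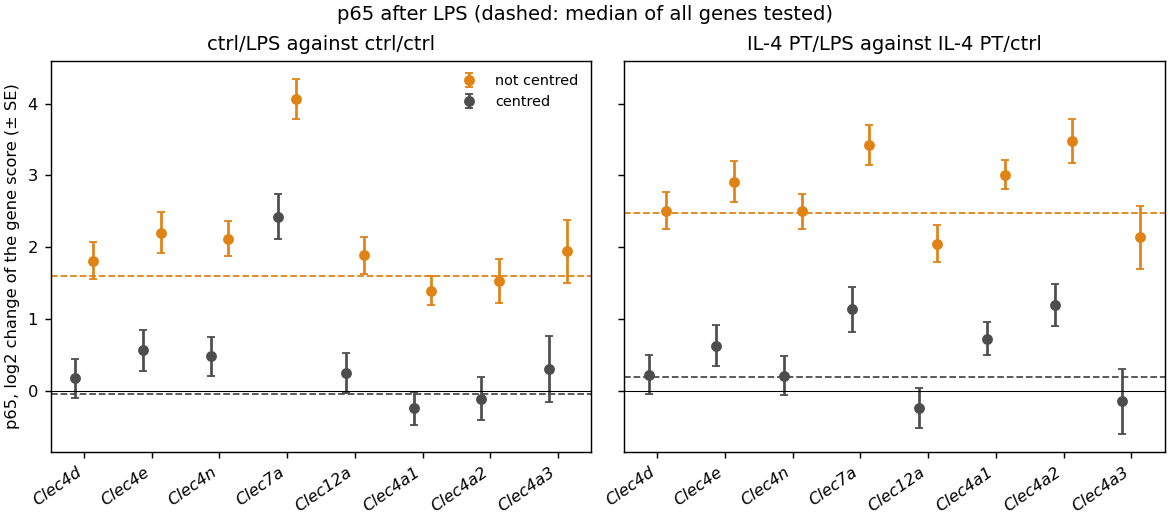
Log2 change of the p65 gene score (± SE) with LPS, relative to the matching group without LPS, before (orange) and after (grey) centring; dashed lines give the median of all genes tested. Before centring all 8 lectin genes lie above 0 in both comparisons, and after centring only Clec7a stands well above the median in ctrl/LPS.

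Of the 74 elements, 30 held a p65 peak, 13 of them in both ctrl/ctrl samples and 24 in both ctrl/LPS samples. In 8 elements p65 was found in every sample, and in another 8 it was found in all 4 LPS samples and in no other. Of the latter, 4 belonged to Clec4d (2280 bp upstream and 15, 3954, and 4999 bp downstream of the TSS), 2 to Clec4n (21629 bp upstream and 14574 bp downstream), 1 to Clec4e (930 bp upstream), and 1 to Clec4a3 (10748 bp downstream). The Clec4e element scored 40.35 and 35.89 in ctrl/LPS and 53.75 and 59.9 in IL-4 PT/LPS. Its promoter element, 133 bp upstream, held p65 in every sample, at 28.77 and 22.78 in ctrl/ctrl, 24.41 and 15.87 in IL-4 PT/ctrl, 69.75 and 77.35 in ctrl/LPS, and 84.37 and 82.97 in IL-4 PT/LPS. At the Clec4d element 2280 bp upstream, p65 scored 26.38 and 26.48 in ctrl/LPS and 16.08 and 27.66 in IL-4 PT/LPS. At the Clec4d element 9029 bp upstream, p65 scored 11.61 and 13.19 in ctrl/ctrl, 10.12 in IL-4 PT/ctrl replicate 2 with no peak in replicate 1, 45.6 and 47.38 in ctrl/LPS, and 36.58 and 37.19 in IL-4 PT/LPS. At 1 element, 5619 bp upstream of Clec12a, p65 was found in ctrl/ctrl (replicate 2, score 4.08) and in no LPS sample. More p65 peaks were called in the LPS samples, and the part of that in the peaks found with LPS alone was not tested. The share of p65 sites of all genes found with LPS alone, or in every sample, was not determined.

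IL-4 for 24 hr without LPS changed 5 of 24 comparisons relative to ctrl/ctrl (1 higher, 4 lower), and 3 passed after adjustment. RNAPII-pS5 passed at 2 of 8 genes against 21.6% of all genes tested, RNAPII-pS2 at 0 of 8 against 29.5%, and p65 at 3 of 8 against 16.3%. After adjustment 1080 of 12477, 1972 of 13663, and 734 of 12312 genes passed in these antibodies, in the same order. Clec4d RNAPII-pS5 scores were 71.82 and 48.91 in ctrl/ctrl and 19.12 and 11.01 in IL-4 PT/ctrl (−2.10 ± 0.38, 4.3-fold lower, BH-adjusted p = 0.0242). Over its element 1247 bp downstream of the TSS the peak scored 41.42 and 33.01 in ctrl/ctrl and 4.35 and 5.41 in IL-4 PT/ctrl, and no IL-4 PT/ctrl peak extended to the element 15 bp from the TSS. Its RNAPII-pS2 scores of 59.52 and 52.62 in ctrl/ctrl and 44.5 and 68.83 in IL-4 PT/ctrl overlapped (0.05 ± 0.27). Clec4a1 RNAPII-pS5 scores were 52.79 and 68.96 in ctrl/ctrl and 42.39 and 31.8 in IL-4 PT/ctrl (−0.79 ± 0.32, BH-adjusted p = 0.223). That call was lost without replicate 2 of ctrl/ctrl (−0.55) or of IL-4 PT/ctrl (−0.56), without any 1 of the 4 LPS samples, without intergenic peaks (−0.77), with the highest peak (−0.49), and with the upper 50% of peaks (−0.89). The other 6 genes, Clec4n, Clec4e, Clec12a, Clec7a, Clec4a2, and Clec4a3, ranged from −0.80 to 0.71 in RNAPII-pS5, and all 8 from −0.57 to 0.44 in RNAPII-pS2. Without centring, Clec4a3 (0.78) passed as higher in RNAPII-pS5, where 2714 of all genes passed.

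The p65 scores of Clec4a1 were 72.54 and 65.67 in ctrl/ctrl and 21.09 and 19.75 in IL-4 PT/ctrl (−1.61 ± 0.23, 3.06-fold lower, BH-adjusted p = 0.0169). Clec4a2 had 32.58 and 28.22 in ctrl/ctrl and 10.39 and 6.27 in IL-4 PT/ctrl (−1.76 ± 0.30, 3.4-fold lower, BH-adjusted p = 0.0272). At both genes most of the score came from the promoter, where the Clec4a1 element (141 bp upstream) held 50.24 and 56.6 in ctrl/ctrl and 15.7 and 14.95 in IL-4 PT/ctrl. Both calls held with each sample left out in turn. Clec7a, with no p65 peak in ctrl/ctrl, scored 2.05 and 3.27 in IL-4 PT/ctrl (BH-adjusted p = 0.122), a difference that came down to 0.15 and did not pass when samples without a peak took a floor 4 times higher, and to 0.23 with the upper 50% of peaks. The other 5 genes, Clec4d, Clec4n, Clec4e, Clec12a, and Clec4a3, ranged from −0.63 to 0.16. Without centring, Clec4d (−0.78) passed as lower, where 2029 of all genes passed.

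Within LPS-treated cells, IL-4 pretreatment was compared as IL-4 PT/LPS relative to ctrl/LPS. Here 4 of 24 comparisons passed, all lower, and none after adjustment. RNAPII-pS5 passed at 1 of 8 genes against 26.1%, RNAPII-pS2 at 2 of 8 against 23.5%, and p65 at 1 of 8 against 25.7% of all genes tested. After adjustment 1250 of 12477, 1156 of 13663, and 1540 of 12312 genes passed in these antibodies, in the same order. Of the 4 calls, 3 were at Clec4a1. Its RNAPII-pS5 scores were 35.18 and 31.32 in ctrl/LPS and 18.53 and 18.74 in IL-4 PT/LPS (−1.12 ± 0.32, BH-adjusted p = 0.0829), a call that held with each sample left out in turn but not without intergenic peaks (−0.72), with the highest peak (−0.73), or with the upper 50% of peaks (−2.62). Its RNAPII-pS2 scores were 63.83 and 59.94 in ctrl/LPS and 40.91 and 31.36 in IL-4 PT/LPS (−0.83 ± 0.27, BH-adjusted p = 0.131), which missed the threshold without either ctrl/LPS sample or IL-4 PT/LPS replicate 2 (−0.66), without intergenic peaks (−0.56), with the highest peak (−0.38), and with the upper 50% of peaks (−0.76).

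Clec4a1 p65 scores of 172.03 and 191.03 in ctrl/LPS and 172.04 and 157.8 in IL-4 PT/LPS overlapped before centring. They passed after it (−0.64 ± 0.23, BH-adjusted p = 0.148), but the uncentred change was −0.14 and did not pass. The centred call was lost without any 1 of the ctrl/LPS or IL-4 PT/LPS samples (−0.52 to −0.76) or with the highest peak (−0.37). Clec4n RNAPII-pS2 scores were 107.19 and 97.21 in ctrl/LPS and 72.03 and 69.44 in IL-4 PT/LPS (−0.57 ± 0.23, BH-adjusted p = 0.212), and missed the threshold without any 1 of the 6 samples outside ctrl/ctrl, without centring (−0.53), without intergenic peaks and with the highest peak (both −0.26), and with the upper 50% of peaks (−0.41). For Clec4e, the change was −0.34 ± 0.39 in RNAPII-pS5, 0.17 ± 0.39 in RNAPII-pS2, and −0.17 ± 0.29 in p65, and none passed. The other genes, Clec4d, Clec7a, Clec4a2, Clec4a3, Clec12a, and, outside RNAPII-pS2, Clec4n, lay between −0.82 and −0.03 in RNAPII-pS5, −0.37 and 0.37 in RNAPII-pS2, and −0.59 and −0.16 in p65.

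In cells pretreated with IL-4, LPS changed 10 of 24 comparisons (IL-4 PT/LPS relative to IL-4 PT/ctrl; 6 higher, 4 lower), 7 of them after adjustment. RNAPII-pS5 passed at 5 of 8 genes against 34.0%, RNAPII-pS2 at 2 of 8 against 35.1%, and p65 at 3 of 8 against 41.7% of all genes tested. After adjustment 2564 of 12477, 2783 of 13663, and 3424 of 12312 genes passed in these antibodies, in the same order. Clec4e RNAPII-pS5 scores were 5.41 and 6.98 in IL-4 PT/ctrl and 27.28 and 38.36 in IL-4 PT/LPS (2.51 ± 0.39, 5.7-fold, BH-adjusted p = 0.00777), which did not pass without intergenic peaks (1.73). Its RNAPII-pS2 scores were 13.31 and 9.61 in IL-4 PT/ctrl and 44.0 and 49.49 in IL-4 PT/LPS (1.71 ± 0.39, BH-adjusted p = 0.0306), but the highest peak in place of the sum gave −0.03, which did not pass, nor did the change without intergenic peaks (1.00) or with the upper 50% of peaks (1.23). Clec4d RNAPII-pS5 scores were 19.12 and 11.01 in IL-4 PT/ctrl and 45.67 and 39.81 in IL-4 PT/LPS (1.67 ± 0.38, 3.18-fold, BH-adjusted p = 0.0281).

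The Clec4a genes moved the other way in RNAPII-pS5, which was the direction of most genes that passed (2697 lower, 1544 higher). Clec4a3 scored 67.89 and 92.52 in IL-4 PT/ctrl and 22.78 and 17.81 in IL-4 PT/LPS (−1.86 ± 0.32, BH-adjusted p = 0.0113). Clec4a2 scored 62.07 and 61.26 in IL-4 PT/ctrl and 15.39 and 16.57 in IL-4 PT/LPS (−1.84 ± 0.37, BH-adjusted p = 0.0182). Clec4a1 scored 42.39 and 31.8 in IL-4 PT/ctrl and 18.53 and 18.74 in IL-4 PT/LPS (−0.86 ± 0.32, BH-adjusted p = 0.115), which missed the threshold without replicate 1 of IL-4 PT/ctrl (−0.65) or of ctrl/LPS, without either IL-4 PT/LPS sample, without intergenic peaks (−0.33), or with the upper 50% of peaks (−2.66). Clec4a3 also fell in RNAPII-pS2, from 66.26 and 68.01 to 48.22 and 41.95 (−0.91 ± 0.25, BH-adjusted p = 0.0501), and missed the threshold without IL-4 PT/LPS replicate 2, without centring (−0.58), and with the highest peak (−0.47). The other genes, Clec4n, Clec7a, and Clec12a, and in RNAPII-pS2 also Clec4d, Clec4a1, and Clec4a2, ranged from −0.35 to 0.52 in RNAPII-pS5 and from −0.58 to 0.18 in RNAPII-pS2.

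In p65, without centring all 8 genes were higher in IL-4 PT/LPS than in IL-4 PT/ctrl, as were 99.4% of the genes that passed (61.8% with centring), around a shift of 2.29. Relative to that shift, Clec4a2 rose from 10.39 and 6.27 to 91.31 and 88.8 (1.19 ± 0.30, BH-adjusted p = 0.0325). Clec7a rose from 2.05 and 3.27 to 28.74 and 27 (1.14 ± 0.31, BH-adjusted p = 0.0443), and missed the threshold without IL-4 PT/LPS replicate 1 or with a floor 4 times higher (0.12). Clec4a1 rose from 21.09 and 19.75 to 172.04 and 157.8 (0.72 ± 0.23, BH-adjusted p = 0.0652), and missed the threshold without IL-4 PT/ctrl replicate 2 or IL-4 PT/LPS replicate 1 (0.60). The other 5 genes, Clec12a, Clec4a3, Clec4n, Clec4d, and Clec4e, ranged from −0.24 to 0.62.

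Whether the effect of IL-4 pretreatment differed with and without LPS was tested as an interaction in the same limma fit. RNAPII-pS5 passed at 1 of 8 genes against 22.6% of all genes tested, RNAPII-pS2 at 0 of 8 against 22.4%, and p65 at 3 of 8 against 22.3%. None of the 4 passed after adjustment. Of all genes, 762 of 12477, 872 of 13663, and 914 of 12312 did so in these antibodies, in the same order. Among all genes that passed for p65, 62.5% of the differences were positive with and 87.0% without centring (shift 0.65). The IL-4 effect on RNAPII-pS5 at Clec4d was −2.10 without LPS and −0.73 with LPS, a difference of 1.38 ± 0.54 (BH-adjusted p = 0.201). For p65, the effect at Clec4a1 was −1.61 without and −0.64 with LPS, and that at Clec4a2 −1.76 without and −0.46 with LPS. For Clec4e the difference was 0.45 ± 0.55 in RNAPII-pS5, 0.72 ± 0.56 in RNAPII-pS2, and 0.06 ± 0.41 in p65, and none passed. The other genes that did not pass, Clec4n, Clec4a3, Clec12a, and outside p65 also Clec7a, Clec4a1, and Clec4a2, ranged from −1.06 to 0.53 in RNAPII-pS5, from −0.39 to 0.36 in RNAPII-pS2, and from −0.49 to −0.27 in p65; Clec4d was at 0.32 in RNAPII-pS2 and 0.05 in p65.

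The neighbouring and related lectin genes were described from a list of 12 (Clec4a4, Clec4b1, Clec4b2, Clec12b, Clec1a, Clec1b, Clec2d, Clec2i, Clec5a, Clec9a, Clec10a, and Olr1). At 1 hr of IL-4, 17 of 74 comparisons of this list outside RNAPII-pS2 passed (12 higher, 5 lower), where the share of all genes was 8.86% to 46.0% by antibody. In RNAPII-pS2 4 of 8 passed. In ctrl/LPS relative to ctrl/ctrl 18 of 34 passed (8 higher, 10 lower), where 38.8% to 45.8% of all genes passed. IL-4 PT/ctrl relative to ctrl/ctrl gave 8 of 34 (6 higher, 2 lower), where 16.3% to 29.5% of all genes passed. IL-4 PT/LPS relative to ctrl/LPS gave 6 of 34 (3 higher, 3 lower; 23.5% to 26.1% of all genes), IL-4 PT/LPS relative to IL-4 PT/ctrl 13 of 34 (5 higher, 8 lower; 34.0% to 41.7%), and the interaction 4 of 34 (1 higher, 3 lower; 22.3% to 22.6%). The 4 genes with the smallest p were Clec10a, Clec1b, Olr1, and Clec2d. Clec10a, a lectin of alternatively activated macrophages, had RNAPII-pS5 at 45.28 and 47.62 in ctrl/ctrl and no peak in either ctrl/LPS sample (BH-adjusted p = 0.00168). Clec1b RNAPII-pS2 scored 6.14 and 12.31 in IL-4 PT/ctrl and had no peak in either IL-4 PT/LPS sample (BH-adjusted p = 0.00238). Olr1, the receptor of oxidized LDL, rose in p65 from 9.49 and 8.56 in ctrl/ctrl to 112.14 and 99.54 in ctrl/LPS (1.91 ± 0.23, BH-adjusted p = 0.00366). Clec2d p65 rose from 10.55 and 12.04 to 101.13 and 116.32 in the same comparison (1.63 ± 0.23, BH-adjusted p = 0.00447).

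A list of 11 genes of the signalling route of these receptors held Fcer1g, Syk, Card9, Bcl10, Malt1, Prkcd, Plcg2, Vav1, Src, Ptpn6, and Ptpn11. At 1 hr of IL-4, 10 of 75 of its comparisons outside RNAPII-pS2 passed (4 higher, 6 lower), against the 8.86% to 46.0% of all genes given above, and 1 of 11 in RNAPII-pS2. In ctrl/LPS relative to ctrl/ctrl 15 of 33 passed (4 higher, 11 lower; 38.8% to 45.8% of all genes). For the IL-4 pretreatment 12 of 33 passed without LPS (3 higher, 9 lower; 16.3% to 29.5% of all genes) and 6 of 33 with LPS (3 higher, 3 lower; 23.5% to 26.1%). LPS in pretreated cells gave 12 of 33 (7 higher, 5 lower; 34.0% to 41.7% of all genes), and the interaction 10 of 33 (7 higher, 3 lower; 22.3% to 22.6%). The 4 genes with the smallest p were Ptpn6, Plcg2, Card9, and Fcer1g. Ptpn6, which encodes the phosphatase SHP-1, had no H3K27Ac region annotated to it in untreated samples and scored 495.7 and 474.2 after IL-4 (BH-adjusted p = 0.000114). Scores follow the annotated gene name, so a region that carried another name in untreated samples would not be counted. Whether this was so at Ptpn6 was not tested. Plcg2, a phospholipase downstream of Syk, fell in p65 from 40.93 and 31.5 in ctrl/ctrl to 6.43 and 8.85 in IL-4 PT/ctrl (−2.11 ± 0.29, BH-adjusted p = 0.0158). Card9 RNAPII-pS2 scored 10.07 and 12.74 in the libraries labelled untreated and had no peak in those labelled IL-4 at 1 hr (BH-adjusted p = 0.0574). Fcer1g had no p65 peak in ctrl/ctrl and scored 27.2 and 21.04 in ctrl/LPS (BH-adjusted p = 0.00588).

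The genes whose RNAPII-pS5 pattern over the 8 pretreatment samples was most like that of 3 of the lectins were found by Pearson's r over 5015 genes with a peak in every sample, as a description. They were Ifit3 (0.9715), Cdhr3 (0.9671), and Trim30b (0.9667) for Clec4d, and Vps26a (0.989), Ccl5 (0.9885), and Irf1 (0.9872) for Clec4e. For Clec7a, with smaller differences between samples, they were Ddx19a (0.9275), Klhl18 (0.9154), and Rab3gap1 (0.9057). The 8 samples share libraries and peak numbers, which enter both genes of each pair.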

How the data were processed

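ChIP-seq peaks of 56 samples of mouse BMDMs were analysed, with groups and replicate numbers taken from the sample labels. Per the labels, the authors' notes name BWA 0.7.10, SAMtools 0.1.19, HOMER 4.2, and MACS2 2.0.10 with mm10; peaks were called in each sample, blacklisted regions removed, and peaks annotated with HOMER. The deposited score of a MACS2 peak is a −log10 p- or q-value, inferred from its values, and up to 0.938% of the peaks of a sample scored under 2. For H3K27Ac regions the deposited score is HOMER's normalized tag number, treated as a signal. No reads were in the files used here, so depth is unknown and no counting interval is given; a −log10 score rises with depth.

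The score of a gene was the sum over its annotated peaks, a missing gene took the antibody's lowest score as a floor (1.3 to 1.44, 9.1 for H3K27Ac), and log2 values were centred per sample on the median of genes with a peak in every sample. A gene was tested if 2 or more samples had a peak, with limma 3.58.1 (R 4.3.3, two-sided, unadjusted p of at most 0.05, Benjamini-Hochberg value beside it), per antibody over 4 samples (1 hr) or all 8 (pretreatment). A fold change is on this floored scale and none is given where a group had no peak. The fit was tested on simulated data. Peaks that overlapped by at least 1 bp were merged. Python 3.11.15, pandas 2.3.3, numpy 2.4.6, and matplotlib 3.10.9 were used. Sequences and gene positions are from RefSeq (GRCm38.p6), and every peak lay within the chromosome lengths of that assembly.

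The genes and lists were chosen with earlier results of these data known. All 8 genes are named in every comparison, with log2 changes printed for those that passed, unless a group had no peak, and for others where a sentence compares antibodies or conditions; up to 4 genes of each further list were named, by the smallest p. The study states 2 independent biological replicates per group. The alternatives were no centring, a floor 4 times as high, the upper 50% of peaks, no intergenic peaks, the highest peak in place of the sum, genes with a peak in every sample, the replicate number as a block, adjusted p, and each sample left out in turn; a minimum score of 2 was chosen after seeing the data. With 1 sample of a group left out, the remaining sample is assumed to vary like the other groups. No columns of other samples were present.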

Additional observations from a re-analysis of the deposited data

Results flagged for a closer look

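At 4 gene and antibody combinations the effect of IL-4 pretreatment with LPS differed from that without LPS in the limma interaction test at an unadjusted p of at most 0.05; none passed after Benjamini-Hochberg (BH) adjustment, and the share of all genes passing was 22.6% in RNAPII-pS5 and 22.3% in p65. Clec4d RNAPII-pS5 differed by 1.376 (BH-adjusted p = 0.201), with ctrl/ctrl at 71.82 and 48.91, IL-4 PT/ctrl at 19.12 and 11.01, ctrl/LPS at 63.63 and 52.8, and IL-4 PT/LPS at 45.67 and 39.81. It was lost in 6 of 8 fits with 1 sample left out (0.96 to 1.80), all but those without ctrl/ctrl replicate 2 and IL-4 PT/ctrl replicate 1.

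Clec4a1 p65 differed by 0.97 (BH-adjusted p = 0.152), and the difference missed the threshold without ctrl/ctrl replicate 1 (0.89) or IL-4 PT/LPS replicate 1 (0.85). Clec4a2 p65 differed by 1.301 (BH-adjusted p = 0.14), and missed it without ctrl/ctrl replicate 1 (1.19), ctrl/LPS replicate 1 (1.23), or IL-4 PT/LPS replicate 1 (1.22). Clec7a p65 differed by −1.289 (BH-adjusted p = 0.162), but it had no peak in ctrl/ctrl, so the size depends on the floor, and it missed the threshold in 6 of 8 fits with 1 sample left out (−1.68 to −0.92), all but those without an IL-4 PT/ctrl sample. It also missed the threshold without centring (−0.64), with a floor 4 times as high (−0.31), with the highest peak (−1.11), and with the upper 50% of peaks (0.14). The Clec4a2 difference missed it without intergenic peaks (0.87), with the highest peak (0.96), and with the upper 50% of peaks (2.30).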

How the results depend on the processing

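Depth is unknown, groups hold 2 samples, and scores of −log10 type grow with depth, which limits small differences. Of 42 calls of a gene in a comparison, 24 passed in every fit with 1 sample left out and 18 were lost in at least 1. Over 648 alternative values of these calls, 512 kept their direction and threshold, 133 lost the threshold, and 3 reversed: Clec12a p300 at 1 hr without centring (0.231), Clec4e RNAPII-pS2 in IL-4 PT/LPS relative to IL-4 PT/ctrl with the highest peak (−0.034), and Clec7a p65 in the interaction with the upper 50% of peaks (0.141). The cause was not tested.

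Calls over the 8 genes numbered 14 at 1 hr, 5 in ctrl/LPS relative to ctrl/ctrl, 5 in IL-4 PT/ctrl relative to ctrl/ctrl, 4 in IL-4 PT/LPS relative to ctrl/LPS, 10 in IL-4 PT/LPS relative to IL-4 PT/ctrl, and 4 in the interaction. With adjusted p they were 6, 2, 3, 0, 7, and 0. In ctrl/LPS they were 14 without centring, 8 with a floor 4 times as high, and 9 with the upper 50% of peaks. In IL-4 PT/LPS relative to ctrl/LPS they were 7 with the higher floor, and 2 without centring, with the upper 50%, without intergenic peaks, with the highest peak, or with the block.

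Leaving out 1 sample gave 12 to 17, 3 to 5, 4 to 6, 2 to 5, 8 to 12, and 1 to 5 calls in the same order. The count fell to 3 in ctrl/LPS without RNAPII-pS2 ctrl/LPS replicate 1, and to 2 in IL-4 PT/LPS relative to ctrl/LPS without either RNAPII-pS2 ctrl/LPS sample or IL-4 PT/LPS replicate 2. In the interaction it fell to 1 without p65 ctrl/ctrl replicate 1 or IL-4 PT/LPS replicate 1, and to 2 without p65 ctrl/LPS replicate 1. With the replicate block the counts were 13, 5, 4, 2, 9, and 4. Deviations of same-numbered samples correlated at −0.027 to 0.066 (26 correlations), which gives no sign that the numbers pair the samples. These were centred scores, so a pairing that shifts whole samples could not be seen. A minimum score of 2, chosen after seeing the data, left the 6 counts as they were. The score of the strongest site as a sum in place of the highest peak moved by more than the replicate spread in 33 values and by less in 404. For Clec4e RNAPII-pS2 at 1 hr, only 2 fits with 1 sample left out could be made.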
